A study of Homo sapiens with 6 samples.

Results

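The BCL2 family was examined through 10 of its genes in MDA-MB-231 cells, a human triple-negative breast cancer line, treated with nitidine chloride (NCD). The members were chosen by symbol and comprise the pro-survival genes BCL2, BCL2L1 and MCL1, the BH3-only genes BCL2L11, BBC3, PMAIP1, BID and BIK, and the effector genes BAX and BAK1. All 10 were found among the 63241 Ensembl genes of the count files, and all 10 passed the filter on low counts that left 15295 genes to test. Wild-type cells were given 5 μM NCD for 24 h, or 0.1% DMSO as vehicle for the same time, and RNA of whole cultures was sequenced in 3 libraries per group. The labels do not give the DMSO content of the NCD cultures. MDA-MB-231 is 1 cell line, so the libraries do not sample different tumors.

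BCL2 family proteins decide whether the outer membrane of mitochondria is permeabilized, the committing step of intrinsic apoptosis. BAX and BAK1 form the pores, the pro-survival proteins hold them and their activators in check, and BH3-only proteins carry stress signals by binding the pro-survival proteins or by activating BAX and BAK1 directly. Breast cancer cells often depend on BCL-xL, the product of BCL2L1, and on MCL1. Much of this control acts on proteins (cleavage of BID, phosphorylation and degradation of MCL1 and BIM, relocation of BAX), which RNA counts do not measure.

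The 6 libraries held between 18223594 and 21629653 expected counts. Levels are given as CPM, counts brought to an equal library size with TMM factors. Differential expression means an absolute log2 fold change above 1 together with an adjusted p (Benjamini-Hochberg, edgeR's quasi-likelihood test) below 0.05. For NCD replicates 2 and 3 the description field carries a different line number, whereas the cell line field names MDA-MB-231 as for the rest, and results are therefore also given for NCD replicate 1 alone. All 6 markers of the line were present in both groups (VIM, a mesenchymal filament, at 3060 CPM with DMSO and 2640 CPM with NCD). However, 5 of the 6 were lower with NCD at an adjusted p below 0.05, beside 34.1% of all tested genes. Differentially expressed and lower were 3 of the 6, beside 17.5% of all tested genes. These were EGFR (170 to 27.9 CPM), CD44 (977 to 277 CPM) and AXL (856 to 399 CPM). NCD replicate 1, which has no such mismatch of line labels, had 27.4, 282 and 409 CPM of these genes. The part of the line labels in the falls was not tested. By contrast, ESR1, PGR and CDH1 had at most 7 counts in any library and EPCAM had at most 93. Among markers of leukocytes, endothelium and fibroblasts, PTPRC, CD3E, CDH5 and DCN had at most 7 counts in any library and PECAM1 had at most 21. NCD replicate 3 stood apart from the other NCD libraries (chi-square per degree of freedom 15.9 and 14.1, against 2.09 between replicates 1 and 2), and without it 6 members were differentially expressed. DMSO replicate 2 differed from DMSO replicates 1 and 3 by 16.9 and 8.56, against 4.42 between those. Leaving out DMSO replicate 2 also gave 6 differentially expressed members. Mitochondrially encoded mRNAs took 5.75% to 6.06% of counts with DMSO and 3.96% to 4.03% with NCD. In RNA from whole cultures, a change in every cell and a change in the share of cells in a given state cannot be told apart, and CPM do not show total RNA per cell. The labels do not say that libraries came from separate cultures, so p-values measure the spread between these libraries, which may be technical.

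With NCD treatment, the pro-survival genes BCL2 and BCL2L1 fell, 4 of the 5 BH3-only genes (BCL2L11, BBC3, PMAIP1 and BIK) rose, and MCL1 and BAX did not pass the test. Of the 10 members 6 were differentially expressed, 4 higher and 2 lower, beside 31.0% of all tested genes (13.5% higher and 17.5% lower). BIK passed the low-count filter through its NCD libraries alone, and without it 5 of 9 members were differentially expressed, 3 higher and 2 lower. At an adjusted p below 0.05 with any fold, 8 of the 10 members passed, 5 higher and 3 lower, beside 69.3% of all tested genes (35.3% higher and 34.1% lower). The same 8 members had no overlap between the NCD and the DMSO libraries, which was so for 72.6% of all tested genes (37.2% with NCD above and 35.3% below). Without BIK, 7 of 9 members passed and the same 7 had no overlap. The counts at any fold and without overlap are therefore near the background. The 6 of 10 differentially expressed members lie above the 31.0% of all tested genes. However, the members were chosen with earlier results of these data known, and no test was run on this count. The split by role is a description of these genes. The median log2 fold change was -1.53 over the 3 pro-survival members and 1.60 over the 7 pro-death members (1.11 without BIK), beside 0.04 over all tested genes. Scaling by library totals in place of TMM gave 2793 higher and 2181 lower genes in all, moved the median of all genes to 0.23, and left the 6 members called. NCD replicate 1 alone against DMSO, an alternative added after seeing the data, also called 6 members, but there the spread came from the DMSO libraries alone and the lone library was assumed to vary like them, so the count does not settle the doubt about the labels. Exact two-sided permutation tests on CPM gave p = 0.1 for each of the 8 members without overlap, the smallest p that 3 against 3 libraries allow.

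**Figure D1:**
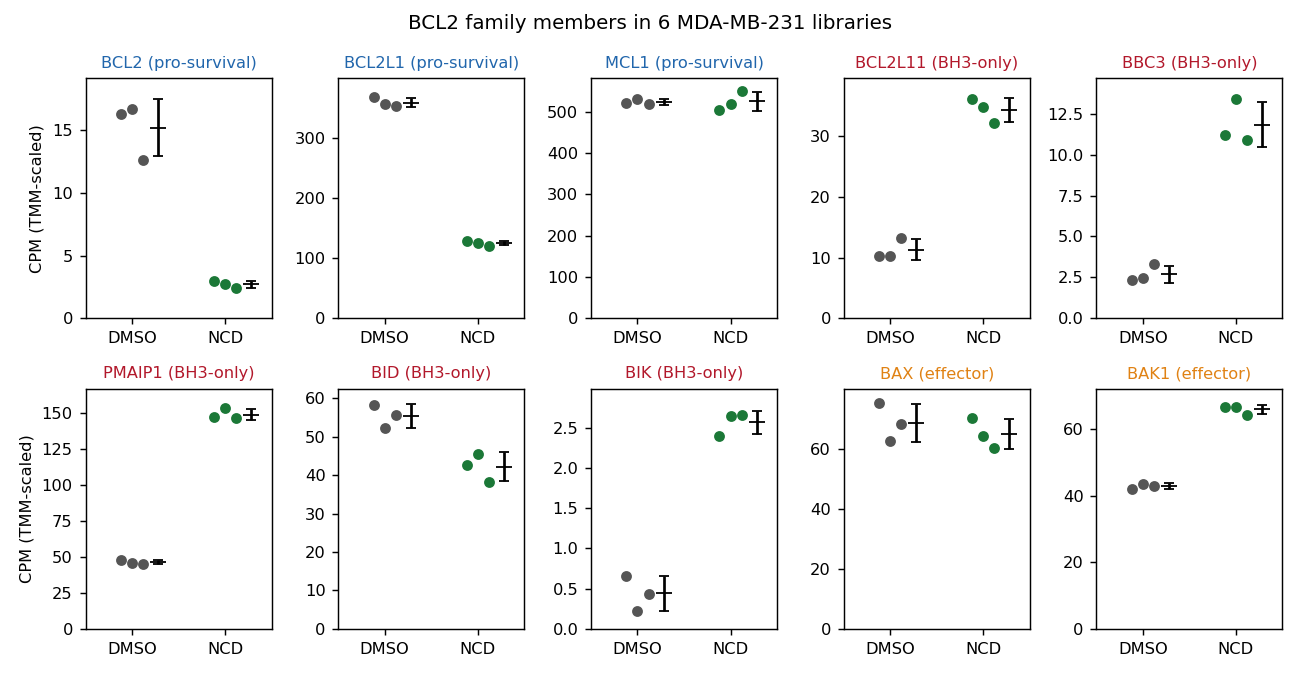
CPM (y axis, linear from 0, a separate scale in each panel) of the 10 members in the 3 DMSO (grey) and 3 NCD (green) libraries. Points are libraries, and the bar beside them is the mean ± SD. The groups are apart for 8 members and overlap for MCL1 and BAX.

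For the members whose mRNA changed most clearly by role, the RefSeq sequences of the 250 bases before the annotated start (GRCh38.p14) show what lies at the start of 3 of the raised BH3-only genes and of both lowered pro-survival genes. The windows are at chr19:47232668-47232917 (minus strand) for BBC3, chr18:59899746-59899995 (plus) for PMAIP1, chr2:111120664-111120913 (plus) for BCL2L11, chr20:31723964-31724213 (minus) for BCL2L1 and chr18:63319770-63320019 (minus) for BCL2. Where RefSeq gives several starts, the window nearest the 5′ end of the GENCODE gene was taken, which lay 1535 bp away for BCL2L11, 358 bp for BCL2 and at most 98 bp for the other 3. Which start these cells use was not measured. Capitals mark matches on either strand to the motifs listed after the sequences.
BBC3: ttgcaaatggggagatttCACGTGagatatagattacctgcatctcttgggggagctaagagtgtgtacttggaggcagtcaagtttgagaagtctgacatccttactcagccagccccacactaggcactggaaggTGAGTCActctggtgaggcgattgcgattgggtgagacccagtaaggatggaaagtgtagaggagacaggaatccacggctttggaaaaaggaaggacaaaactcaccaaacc
PMAIP1: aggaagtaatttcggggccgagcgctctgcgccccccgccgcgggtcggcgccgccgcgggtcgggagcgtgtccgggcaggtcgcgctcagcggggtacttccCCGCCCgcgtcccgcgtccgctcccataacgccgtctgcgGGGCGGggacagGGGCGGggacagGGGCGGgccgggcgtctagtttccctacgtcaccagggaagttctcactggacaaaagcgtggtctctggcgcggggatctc
BCL2L11: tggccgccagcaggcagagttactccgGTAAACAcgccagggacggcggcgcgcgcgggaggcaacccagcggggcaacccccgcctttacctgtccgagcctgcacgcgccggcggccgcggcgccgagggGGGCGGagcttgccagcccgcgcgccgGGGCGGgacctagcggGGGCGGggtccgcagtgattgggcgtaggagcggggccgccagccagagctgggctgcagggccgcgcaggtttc
BCL2L1: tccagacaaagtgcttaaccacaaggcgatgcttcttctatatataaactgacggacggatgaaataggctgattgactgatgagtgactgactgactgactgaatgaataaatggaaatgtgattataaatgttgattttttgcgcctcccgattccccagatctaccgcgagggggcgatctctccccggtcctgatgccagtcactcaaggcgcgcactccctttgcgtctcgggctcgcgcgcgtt
BCL2: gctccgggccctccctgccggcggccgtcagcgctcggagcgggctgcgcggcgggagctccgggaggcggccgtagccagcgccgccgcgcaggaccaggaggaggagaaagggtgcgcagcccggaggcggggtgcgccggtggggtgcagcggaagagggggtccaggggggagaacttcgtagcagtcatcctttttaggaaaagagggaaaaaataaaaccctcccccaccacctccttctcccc

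The motifs reported here were the GC box GGGCGG, the E-box CACGTG, the AP-1 site TGACTCA, the forkhead site TGTTTAC, the cAMP response element TGACGTCA, the C/EBP-ATF composite TGATGCAA, the STAT element TTCCNGGAA and the E2F site TTTCGCGC. The GC box occurred 4 times in the PMAIP1 window and 3 times in that of BCL2L11. Of 35116 windows of this length 42.6% held it at least once, and the share with several copies was not computed. BBC3 had an E-box 232 bases before the start, found in 6.34% of windows, and an AP-1 match at 113 bases, found in 4.20%. BCL2L11 had a forkhead match at 223 bases, found in 2.98%. None of these motifs was matched in the BCL2L1 and BCL2 windows, and matches in the printed windows shared no base. Of the windows not printed, that of BAX, which did not pass the test, held the E-box and the GC box. The BAK1 window held the GC box. The window taken for BID held none of these motifs, though other BID windows held the E-box and the GC box. Windows were at hand for 8 of the 10 members, not for MCL1 and BIK, and none of the 8 held the C/EBP-ATF composite (0.772% of windows), the cAMP response element (1.65%), the E2F site (0.439%) or the STAT element (0.968%). Among the printed windows GC content ran from 49.2% for BBC3 to 76.8% for BCL2L11, around a median of 58.0% for all windows. These matches describe letters in a window and not binding.

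Among the pro-survival members, BCL2L1 (ENSG00000171552; chromosome 20, 31664452 to 31723989, minus strand, GENCODE release 29 on GRCh38) fell in all NCD libraries. Its product BCL-xL sequesters BAX, BAK1 and BH3-only proteins. DMSO libraries had 368, 356 and 353 CPM, and NCD treatment left 128, 125 and 121 CPM. The groups lay far apart and each varied little, with 359 ± 7.78 CPM (SD, n = 3) against 124 ± 3.86 CPM (SD, n = 3). The decrease was 2.88-fold, or -1.53 on the log2 scale with a standard error of 0.06 (edgeR's quasi-likelihood test, adjusted p = 4.74e-08). Gene-level counts do not separate the long BCL-xL from the short BCL-xS transcript. The antisense gene ABALON shares 1424 exon bases with BCL2L1 but had at most 4.13 counts in any library.

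BCL2 (ENSG00000171791; chromosome 18, 63123346 to 63320128, minus strand), the founding pro-survival gene, had fewer reads and fell as well, and the difference between its change and that of BCL2L1 was not tested. It had 16.3, 16.7 and 12.6 CPM with DMSO and 2.97, 2.74 and 2.42 CPM with NCD. In counts this was 270, 295 and 230 against 68, 53 and 52. The lowest DMSO library was over 4 times the highest NCD library. In edgeR's test this was a 5.58-fold decrease, -2.48 on the log2 scale (standard error 0.16) at an adjusted p of 1.06e-06.

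MCL1 (ENSG00000143384; chromosome 1, 150574551 to 150579738, minus strand) encodes a short-lived pro-survival protein made from a short-lived mRNA. Levels were 521, 532 and 518 CPM with DMSO and 505, 520 and 551 CPM with NCD. The groups overlapped, and the means of 524 ± 7.35 CPM (SD, n = 3) and 525 ± 23.4 CPM (SD, n = 3) differed by less than the spread between libraries. On the log2 scale the difference was 0.00 (standard error 0.06) at an adjusted p of 0.957 in edgeR's test. With scaling by library totals it was 0.20 (adjusted p = 0.0147), while the median of all genes moved from 0.04 to 0.23.

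**Figure D2:**
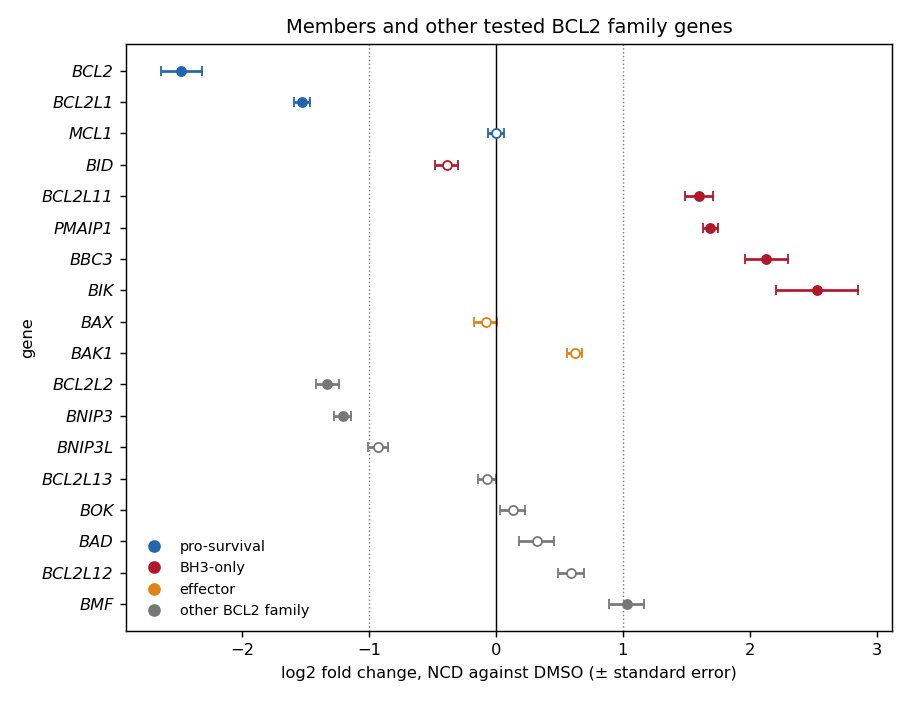
Log2 fold change with NCD against DMSO (x axis, bars are the standard error from edgeR) for the 10 members and the 8 other BCL2 family genes that could be tested, coloured by role. Filled points are differentially expressed and dotted lines mark a log2 fold change of -1 and 1. BCL2 and BCL2L1 lie at -2.48 and -1.53, and BCL2L11, PMAIP1, BBC3 and BIK between 1.60 and 2.53.

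Of the BH3-only members, PMAIP1 (ENSG00000141682; chromosome 18, 59899948 to 59904306, plus strand) had the highest level per kb of exon in both groups. It encodes NOXA, which binds MCL1 and promotes its degradation, and is known as a target of ATF4. Its levels of 47.7, 45.5 and 45.3 CPM with DMSO rose to 147, 153 and 146 CPM with NCD. Both groups were tight and did not overlap. The increase was 3.22-fold (log2 fold change 1.69, standard error 0.06, adjusted p = 3.98e-08 in edgeR's test), the smallest adjusted p of the members.

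BBC3 (ENSG00000105327; chromosome 19, 47220822 to 47232766, minus strand) encodes PUMA, which binds every pro-survival protein of the family. It had 2.35, 2.43 and 3.29 CPM with DMSO, from 39, 43 and 60 counts. With NCD it had 11.2, 13.4 and 10.9 CPM, from 256, 259 and 234 counts. All NCD libraries exceeded the highest DMSO library more than 3-fold. The increase was 4.37-fold, or 2.13 on the log2 scale (standard error 0.17), at an adjusted p of 4.05e-06 in edgeR's test.

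BCL2L11 (ENSG00000153094; chromosome 2, 111119378 to 111168447, plus strand) encodes BIM, a potent activator of BAX and BAK1 whose transcription is promoted by FOXO factors and by DDIT3. Levels were 10.3, 10.3 and 13.3 CPM with DMSO and 36.1, 34.8 and 32.2 CPM with NCD, again without overlap. BCL2L11 rose 3.04-fold, or by 1.60 on the log2 scale (standard error 0.11), at an adjusted p of 2.41e-06 in edgeR's test. The gene shares 727 exon bases with MIR4435-2HG on the opposite strand, a long noncoding RNA with up to 2593 counts per library. MIR4435-2HG went the other way, from between 131 and 142 CPM with DMSO to between 23.3 and 29.8 CPM with NCD (log2 fold change -2.37, standard error 0.09, adjusted p = 7.29e-08). The strand setting of the counting is not given in the sources used here, so reads of the shared bases could not be told apart, and the part of such reads in the BCL2L11 values was not tested.

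BIK (ENSG00000100290; chromosome 22, 43110748 to 43129712, plus strand), a BH3-only gene whose product sits at the endoplasmic reticulum, had the fewest counts and the largest log2 fold change of the 10 members. It had 11, 4 and 8 counts (0.663, 0.226 and 0.439 CPM) with DMSO and 55, 51 and 57 counts (2.40, 2.64 and 2.66 CPM) with NCD. The NCD libraries lay close together and well above the DMSO libraries. BIK passed the low-count filter through its NCD libraries alone, so its test and its rank by fold carry that selection. The fold of 5.77 (log2 fold change 2.53, standard error 0.32, adjusted p = 0.000107 in edgeR's test) is imprecise. It ranged on the log2 scale from 2.21 without DMSO replicate 2 to 2.89 without DMSO replicate 1.

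BID (ENSG00000015475; chromosome 22, 17734138 to 17774770, minus strand), which caspase-8 cleaves to its active form, was the BH3-only member that fell. Levels of 58.3, 52.3 and 55.5 CPM with DMSO stood against 42.7, 45.6 and 38.2 CPM with NCD. The decrease was small, 1.31-fold (log2 fold change -0.39, standard error 0.09, adjusted p = 0.00271 in edgeR's test), and did not reach the fold threshold, although the groups did not overlap.

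Of the effector genes, BAK1 rose and BAX did not pass the test. BAK1 (ENSG00000030110; chromosome 6, 33572547 to 33580293, minus strand), whose product resides in the outer mitochondrial membrane, had 41.9, 43.6 and 42.9 CPM with DMSO and 66.6, 66.7 and 64.2 CPM with NCD. The increase was 1.54-fold, below the fold threshold (log2 fold change 0.62, standard error 0.06, adjusted p = 2.09e-05 in edgeR's test). Its processed pseudogenes BAK1P1 and BAK1P2 had at most 1 count in any library. BAX (ENSG00000087088; chromosome 19, 48954815 to 48961798, plus strand), whose product moves from the cytosol to mitochondria, had 75.3, 62.5 and 68.1 CPM with DMSO and 70.2, 64.1 and 60.2 CPM with NCD. These ranges overlapped, and the log2 difference was -0.08 (standard error 0.09) at an adjusted p of 0.428. Within a library the log2 ratio of BAK1 to BAX in CPM was -0.68 ± 0.16 with DMSO and 0.02 ± 0.09 with NCD (SD, n = 3). These values are not corrected for transcript length.

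To compare levels between genes, CPM were divided by the length of the merged annotated exons in kb, which overstates the length of genes with rarely used exons. With DMSO the order was MCL1 (120 ± 1.68 CPM per kb, SD, n = 3), BCL2L1 (108 ± 2.35), BAX (26.5 ± 2.48), PMAIP1 (20.7 ± 0.608), BAK1 (19.4 ± 0.396), BID (12.5 ± 0.682), BCL2L11 (1.70 ± 0.257), BCL2 (1.29 ± 0.191), BBC3 (0.846 ± 0.163) and BIK (0.464 ± 0.229). In the NCD libraries MCL1 stayed first at 120 ± 5.34 CPM per kb (SD, n = 3) and PMAIP1 came second at 66.6 ± 1.76, followed by BCL2L1 at 37.6 ± 1.16, BAK1 at 29.8 ± 0.637 and BAX at 25.1 ± 1.95. BID had 9.48 ± 0.844 CPM per kb, BCL2L11 5.16 ± 0.296, BBC3 3.72 ± 0.429, BIK 2.69 ± 0.149, and BCL2 was last at 0.231 ± 0.0233. No neighbours in either order overlapped in their ranges over 3 libraries, although PMAIP1 and BAK1 with DMSO were close.

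Summed over a library, the 3 pro-survival members had 229 ± 2.84 CPM per kb (SD, n = 3) with DMSO and 158 ± 4.17 with NCD. The sum of the 5 BH3-only members went from 36.1 ± 1.40 to 87.7 ± 3.09 CPM per kb, and that of BAX and BAK1 from 45.9 ± 2.09 to 54.8 ± 2.48. On the log2 scale the ratio of pro-survival to pro-death sums per kb was 1.44, 1.55 and 1.46 with DMSO. It came to 0.10, 0.10 and 0.24 after NCD treatment. In CPM without division by length it was 1.98 ± 0.07 with DMSO and 0.82 ± 0.09 with NCD (SD, n = 3). A few genes make up these sums: MCL1 was 52.2% ± 0.687 of the pro-survival sum per kb with DMSO and 76.0% ± 1.37 with NCD, and PMAIP1 was 57.2% ± 1.42 and 76.0% ± 0.821 of the BH3-only sum (SD, n = 3). These sums are descriptions over chosen members and carry no test, and mRNA ratios do not give ratios of proteins.

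**Figure D3:**
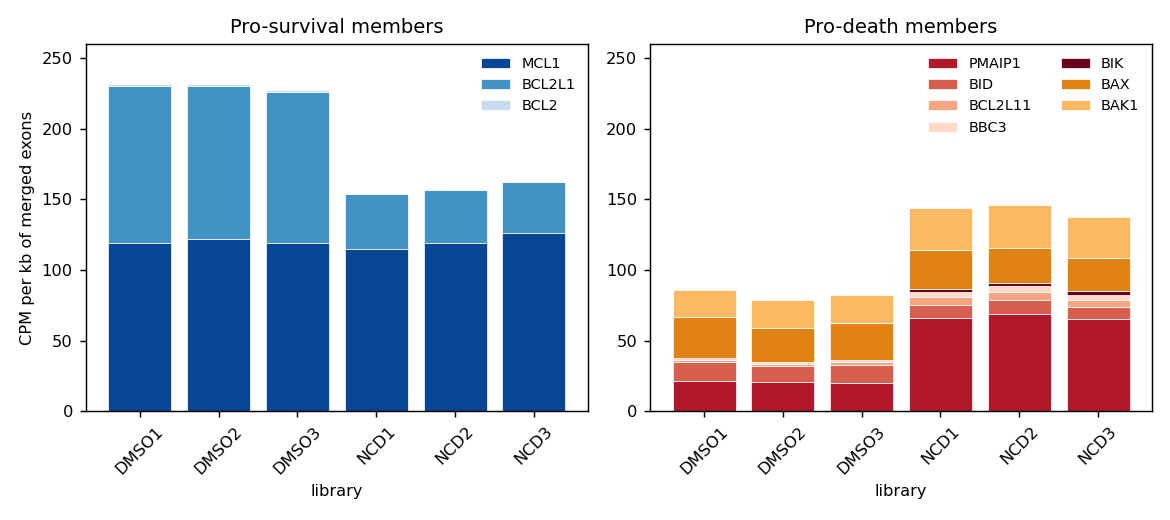
CPM per kb of merged exons (y axis, linear from 0) in each of the 6 libraries, stacked by gene for the 3 pro-survival members (left) and the 7 pro-death members (right). The blue BCL2L1 part falls from between 107 and 111 with DMSO to between 36.4 and 38.7 with NCD, and the red PMAIP1 part rises from between 20.3 and 21.4 to between 65.5 and 68.6.

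Across all genes the change with NCD moved with gene span, and the members differ in span. BCL2 spans 196.8 kb and lies in the top decile of tested genes by span, in which the median log2 fold change was -2.09 and 79.2% of genes were differentially expressed and lower. Its -2.48 lay near that median, but the decile runs from 153.1 to 2172.9 kb. Of the listed genes of like span, EGFR (192.6 kb) had -2.61 and FOXO1 (196.6 kb) had -0.20. BCL2L1 spans 59.5 kb, in a decile with a median of -0.35 and 15.6% of genes lower. The raised genes were shorter: BCL2L11 at 49.1 kb had 1.60 beside a median of -0.03 in its decile, BIK at 19.0 kb had 2.53 beside 0.43, BBC3 at 11.9 kb had 2.13 beside 0.41, and PMAIP1 at 4.4 kb had 1.69 beside 0.39. BAK1, BAX and MCL1, of 7.7, 7.0 and 5.2 kb, fall in the decile with a median of 0.39, and BID at 40.6 kb in that with 0.11. The part of gene span in the members' changes was not tested.

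**Figure D4:**
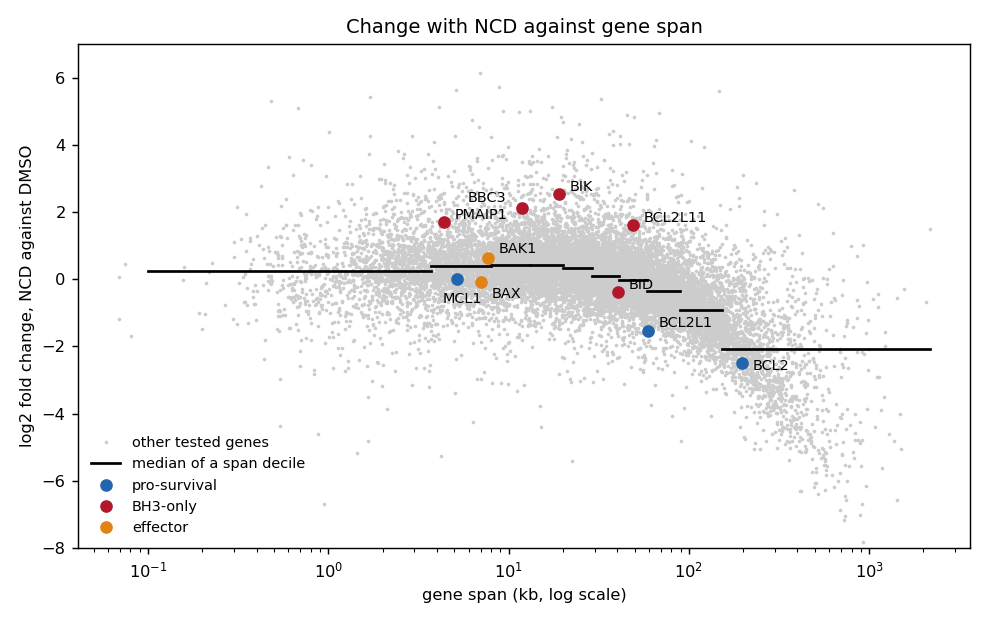
Log2 fold change with NCD against DMSO (y axis) against gene span in kb (x axis, log scale) for tested genes with a GENCODE position (grey) and the 10 members (coloured by role). Black bars are the median of each decile of genes by span. BCL2 lies near the median of its decile, -2.09, and BCL2L1 lies below the median of its own, -0.35.

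Of 13 other BCL2 family genes, 8 could be tested, with a median log2 fold change of 0.03. Of these 8, 1 was differentially expressed and higher and 2 lower, beside 13.5% and 17.5% of all tested genes. BCL2L2, which encodes the pro-survival protein BCL-w, fell from 36.8 ± 2.58 to 14.7 ± 0.784 CPM (SD, n = 3), or by 1.33 on the log2 scale with a standard error of 0.09 (edgeR, adjusted p = 1.42e-06). It shares 813 exon bases with the readthrough gene BCL2L2-PABPN1 on its strand, which had 101 to 393 counts, so its counts are uncertain. BNIP3, a mitophagy receptor with a BH3-like region that hypoxia induces, fell from 474 ± 30.2 to 205 ± 6.91 CPM (SD, n = 3; log2 fold change -1.21, adjusted p = 4.41e-07 in edgeR's test). BMF, a BH3-only gene linked to detachment and the cytoskeleton, rose from 3.66 ± 0.446 to 7.50 ± 0.302 CPM (SD, n = 3; log2 fold change 1.03, adjusted p = 0.000144 in edgeR's test). Its fold lies at the threshold.

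Of the 10 apoptosome and caspase genes, 0 were differentially expressed, beside 31.0% of all tested genes. At an adjusted p below 0.05 with any fold 4 were higher and 3 lower in edgeR's test, and these 7 of 10 are near the 69.3% of all tested genes. APAF1, the scaffold of the apoptosome, was lower with a log2 fold change of -0.82, and the caspase gene CASP6 was higher with 0.93, both named after their values were seen. CASP6 shares 105 exon bases with MCUB on the opposite strand, which had 257 to 901 counts. Of 8 genes for outer membrane and released proteins, 1 was differentially expressed and higher and 1 lower, beside 13.5% and 17.5% of all tested genes. AIFM1, a flavoprotein of the intermembrane space that can be released to the nucleus, fell from 44.6 ± 0.744 to 19.2 ± 0.572 CPM (SD, n = 3; log2 fold change -1.22, adjusted p = 6.48e-07 in edgeR's test). ENDOG, a mitochondrial endonuclease, rose from 7.24 ± 2.62 to 16.0 ± 2.39 CPM (SD, n = 3; log2 fold change 1.15, adjusted p = 0.00159 in edgeR's test), and shares 460 exon bases with SPOUT1 on the opposite strand, which had 674 to 1419 counts.

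Among the inhibitors of apoptosis, proteins that restrain caspases, 6 of 7 could be tested, and 2 were differentially expressed and lower, beside 17.5% of all tested genes. At an adjusted p below 0.05 with any fold, 5 of the 6 were lower and 0 higher, beside 34.1% and 35.3% of all tested genes. The median log2 fold change was -0.90. BIRC6, a giant ubiquitin ligase, fell from 82.7 ± 22.2 to 7.64 ± 1.63 CPM (SD, n = 3; log2 fold change -3.44, standard error 0.22, adjusted p = 1.20e-06 in edgeR's test). It spans 261.9 kb, in the span decile with a median of -2.09. NAIP, better known as an inflammasome sensor, fell from 8.04 ± 1.88 to 1.67 ± 0.258 CPM (SD, n = 3; log2 fold change -2.27, adjusted p = 1.67e-05 in edgeR's test), with counts that are uncertain because the gene has close copies on chromosome 5. XIAP, a direct caspase inhibitor named after its value was seen, stood at 0.03 on the log2 scale with a standard error of 0.09 (edgeR, adjusted p = 0.811).

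Of 12 genes that act on the family from above, 11 could be tested. Differentially expressed were 2 higher and 3 lower, beside 13.5% and 17.5% of all tested genes. At an adjusted p below 0.05 with any fold, 5 were higher and 5 lower, beside 35.3% and 34.1% of all tested genes. DDIT3, which encodes the stress factor CHOP, rose from 28.4 ± 2.79 to 130 ± 9.73 CPM (SD, n = 3; log2 fold change 2.20, standard error 0.09, adjusted p = 9.66e-08 in edgeR's test). It shares 355 exon bases with MARS on the opposite strand, which had 3057 to 4956 counts. ATF4, which acts upstream of DDIT3 and PMAIP1 in the integrated stress response, rose from 463 ± 27.9 to 705 ± 48.0 CPM (SD, n = 3; log2 fold change 0.61, adjusted p = 7.44e-05), below the fold threshold. FOXO3, a forkhead factor that promotes BCL2L11 transcription, fell from 44.6 ± 5.14 to 22.9 ± 0.424 CPM (SD, n = 3; log2 fold change -0.96, adjusted p = 1.74e-05 in edgeR's test), and its relative FOXO1 stood at -0.20 (adjusted p = 0.19), both named after their values were seen. They span 124.9 and 196.6 kb, in span deciles with medians of -0.93 for FOXO3 and -2.09 for FOXO1.

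The 3 genes of this list that were differentially expressed and lower act on the stability of the MCL1 protein. HUWE1 and FBXW7, components of ubiquitin ligases for MCL1, had log2 fold changes of -1.68 (standard error 0.08, adjusted p = 1.84e-07 in edgeR's test) and -1.92 (standard error 0.14, adjusted p = 2.31e-06). USP9X, which removes ubiquitin from MCL1 and falls outside the rule for named genes, had -1.81 (standard error 0.16, adjusted p = 9.94e-06). All 3 are long genes of 150.9 to 215.5 kb. Their span deciles had a median of -2.09 for HUWE1 and FBXW7 and -0.93 for USP9X.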

How the data were processed

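RNA-seq of MDA-MB-231 cells with NCD or DMSO was analysed (3 libraries each). Per the labels and the paper's methods, the authors aligned reads with HISAT2 and estimated expected counts per Ensembl gene with RSEM, on GRCh38 per the submitters' processing notes, and deposited these estimated counts without normalization. For their own comparison the authors used DESeq2 with the same fold threshold and P below 0.05. Versions, annotation release and strandedness are not given in the sources used here. In each file 25 lines of stray text with no gene were skipped. Symbols were found for 62666 of 63241 identifiers. Positions and exon lengths came from GENCODE release 29, which holds 58228 of them.

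Expected counts were rounded and tested with edgeR 4.0.16 in R 4.3.3 (filterByExpr, TMM, glmQLFit, glmQLFTest, Benjamini-Hochberg adjustment over 15295 genes). Standard errors are the absolute log2 fold change over the square root of F. The script was tested on simulated data, drawn once. The calls of BID, BAK1, APAF1, CASP6, ATF4 and FOXO3, and all counts at any fold, rest on the adjusted p alone. In the simulated data such calls exceeded the nominal false rate and missed the limit first set for this test. The limit was then placed on calls with the fold threshold, which met it. The chi-square per degree of freedom between libraries of a group was 4.42 to 16.9 for DMSO and, for NCD, 2.09 between replicates 1 and 2 but 15.9 and 14.1 between replicate 3 and these. All are above sampling noise. NCD replicate 3 stood apart in its group, and the largest value, 16.9, was between DMSO replicates 1 and 2. Alternatives were DESeq2 1.42.0, limma-voom (limma 3.58.1), other scalings and filters, the replicate block and leaving out libraries. Permutation tests used scipy 1.17.1.

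The 10 members, the wider lists and the motifs were chosen with earlier results of these data known. Named genes are all members, up to 4 differentially expressed genes per wider list with the smallest p and at least 1 CPM on average, and ATF4 and DDIT3, and some genes of the lists are not reported here. Depth limits genes with few counts, and no depth-based interval is given.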

Additional observations from a re-analysis of the deposited data

How the results depend on the processing

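Each of the 6 differentially expressed members kept its direction and call under every alternative that could test it. BIK could not be tested under a stricter minimum of 10 counts per library, which left 5 members called. The log2 fold change ranged from -2.63 to -2.28 for BCL2, -1.57 to -1.33 for BCL2L1, 1.52 to 1.80 for BCL2L11, 2.01 to 2.32 for BBC3, 1.64 to 1.89 for PMAIP1 and 2.21 to 2.89 for BIK. BID stayed between -0.45 and -0.20 and BAK1 between 0.58 and 0.82. MCL1, near 0, changed sign to -0.02 with RLE factors, a ribosomal protein reference or DESeq2 (adjusted or unadjusted P), to -0.01 with the stricter count minimum and to -0.03 with NCD replicate 1 alone, and ranged from -0.05 to 0.01 over the fits without each library. BAX changed sign to 0.12 with library totals and to 0.06 with NCD replicate 1 alone. Neither sign carries a call, except MCL1 at 0.20 with library totals, which is past the adjusted p. Across alternatives 5 to 6 members and 10 to 14 genes of the wider lists were differentially expressed, against 12 as reported. The count of all higher genes was 1376 under the minimum of 10 counts, against 2067, and 56.2% of all differentially expressed genes were higher with library totals, against 43.6%. Shared replicate numbers showed no clear pairing, as same-numbered libraries deviated from their group means with correlations of 0.216, -0.185 and 0.023. With 3 libraries per group these deviations depend on each other, so the correlations cannot exclude a pairing. With the replicate block 4723 genes and 6 members were differentially expressed, with BCL2 at -2.48, BCL2L1 at -1.53 and PMAIP1 at 1.69, and no member's call changed.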

Other observations

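The BCL2 family genes below the filter on low counts had few reads in either group. BCL2A1, a pro-survival gene that NF-kB induces, showed counts of 8, 7 and 5 in control libraries and of 5, 0 and 3 after NCD treatment. HRK, a BH3-only gene of neurons, had at most 4 counts, BCL2L14 at most 2 and BCL2L10 at most 1 in any library. For BCL2L15 the control counts were 3, 3 and 9, and those after treatment 10, 9 and 8. These genes were below the filter and were not tested. The BCL2A1 libraries did not overlap in CPM, with 0.384 ± 0.105 against 0.119 ± 0.111 (SD, n = 3). BIRC7 and TP63, from the wider lists, had 0 counts in all 6 libraries.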
